A study of Mus musculus with 2 samples.

Results

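The somatostatin (Sst) nuclei of the entorhinal cortex (ECX) were taken as the nuclei with at least 5000 unique molecular identifiers (UMIs, the counted molecules), at least 8 UMIs of Gad1 and Gad2 together making at least 0.05% of the total of the nucleus, at most 3 UMIs of Slc17a7, fewer than 10 UMIs of Adarb2 and at least 5 UMIs of Sst. The members were thus chosen by these counts, and nothing about these genes or the depth is a finding. The rule found 67 nuclei of 12918, of which 26 of 6745 came from the vehicle library and 41 of 6173 from the OLE library. Each library was made from ECX pooled from 5 male APP/PS1 mice aged 18 months. This line carries transgenes of APP and PS1, expresses mutant APP from the mouse prion protein promoter and deposits amyloid. One pool had been given N-oleoyl-leucine (C18:1-Leu, called OLE) at 25 mg/kg/day from 15 to 18 months of age, and the other pool had been given the vehicle DMSO, in both cases in alkaline drinking water. All mice of both pools carried the transgenes, the mice of a pool cannot be told apart, and there was 1 library per condition. No test between conditions was therefore run, and every interval printed here is at 95%, exact, and covers counting error only.

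Somatostatin interneurons are inhibitory neurons that arise in the medial ganglionic eminence (MGE) and mostly contact the dendrites of pyramidal cells. They package GABA, made by the enzymes encoded by Gad1 and Gad2, in small synaptic vesicles, and the peptide somatostatin, cut from a precursor by convertases, in dense-core vesicles. Their subtypes are told apart by further peptides, enzymes and calcium-binding proteins, among them long-range projecting cells marked by Chodl, Nos1 and Npy.

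The peptide gene itself lies on chromosome 16 from 23889573 to 23890958 on the minus strand (GRCm38, GENCODE). Its transcription is known to be driven by cyclic AMP through the site after which the cyclic AMP response element is named. The site is shown here because Sst is the gene that defines these nuclei. In the RefSeq sequence before the start of the gene (GRCm38.p6, chr16:23890874-23890903, minus strand, 5′ to 3′, the palindromic element in capitals) it read:
Sst: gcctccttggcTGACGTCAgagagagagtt
The element ended 40 bases before the RefSeq start, in a stretch that GENCODE places within the transcribed leader. Within the 250 bases before the start, TGACGTCA, which is the same on both strands, was found in 478 of 27025 genes (1.77%). Among 12 peptide precursor genes with such a window, Sst was the 1 that held it. Of the genes measured well enough in the Sst nuclei, 60 held it, and their median log2 ratio of OLE over vehicle was 0.0081, against -0.0072 over all 1935 genes with a window.

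The 26 vehicle nuclei held 576883 UMIs in all and the 41 OLE nuclei 860459. A vehicle nucleus held between 9672 and 40462 UMIs and an OLE nucleus between 9900 and 40726, with medians of 20832 and 20518. The median number of genes found was 4913 and 5142, and the median share of mitochondrially encoded UMIs was 0.263% and 0.294%. The members were thus of like depth in both libraries, although the median over all nuclei was 3989 UMIs in the vehicle library and 6392 in the OLE library. In all, 14 barcodes were found in both libraries, and 0 of them belonged to a member.

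Over the members as a set, the markers outside the rule fitted the label. Nxph1, a secreted ligand of neurexins that marks MGE interneurons, was found in every member, at 4883 per 1000000 UMIs in the vehicle nuclei and 3944 in the OLE nuclei. Its lowest counts in 1 nucleus were 21 UMIs in the vehicle library and 5 in the OLE library. Sox6, a transcription factor of MGE-derived interneurons, was found in 24 of 26 and 34 of 41 nuclei, at 851 and 819 per 1000000. Lhx6, a further transcription factor of MGE-derived interneurons, was found in 15 and 31 nuclei, at 69.3 and 82.5 per 1000000. Grin3a, a subunit of NMDA receptors, and Elfn1, a postsynaptic protein of excitatory synapses onto Sst interneurons, were found in 23 and 22 of the vehicle nuclei and in 36 and 30 of the OLE nuclei. Both vehicle nuclei and all 7 OLE nuclei without a Sox6 UMI held at least 34 UMIs of Nxph1, which marks MGE interneurons at large. An Nxph1 UMI was, however, also found in 58 of 74 vehicle and 60 of 77 OLE nuclei of the Adarb2 class described below. Its presence alone therefore does not set a nucleus apart from that class. Grin3a and Elfn1 were both at 0 in vehicle nuclei of 15404 and 13175 UMIs and in OLE nuclei of 19052, 20877 and 31583 UMIs. Of these, the OLE nucleus of 19052 UMIs also had 0 UMIs of Sox6, and that of 20877 UMIs had 5 of Nxph1.

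Markers of most other cell types were lower in the members than in the other deep nuclei, which are nuclei of at least 5000 UMIs with at most 3 UMIs of Gad1 and Gad2. Vip had 0 UMIs in the vehicle nuclei and 1 in the OLE nuclei, and Pvalb 4 and 8. Markers of interneurons of the caudal ganglionic eminence (15 genes without Adarb2, Vip among them) summed to 109 and 166 per 1000000, against 194 and 346 in the other deep nuclei. Prox1, also on that list, had 0 UMIs in the vehicle nuclei and 10 in the OLE nuclei, with 5 in each of 2 nuclei. The glutamatergic list (13 genes without Slc17a7) summed to 289 and 378 per 1000000, against 1782 and 1849 in the other deep nuclei. Emx1 was at 0 in the members of both libraries. Of 8 vascular markers 5 and 6 were at 0, and the list summed to 5.20 and 3.49 per 1000000. Astrocyte markers (12 genes) summed to 418 and 221, from 78.2 to 2766 in single vehicle nuclei and from 0 to 1482 in single OLE nuclei, against 1459 and 1763 in the other deep nuclei, with Gfap at 0 in the vehicle members and Gja1 and Gli3 at 0 in the OLE members. Microglia markers (13 genes) summed to 58.9 and 103 per 1000000, with Tyrobp at 0 in both libraries and 1 OLE nucleus at 1724. Oligodendrocyte markers summed to 135 and 136. Markers of their precursors (8 genes) were not lower: they summed to 969 and 943 per 1000000, against 848 and 832 in the other deep nuclei, although Pdgfra, Cspg4, Sox10 and Gpr17 were at 0 in both libraries. The 12 markers of Pvalb interneurons, a further MGE class, summed to 565 and 611, against 154 and 177 in the other deep nuclei, and Pvalb itself stayed at the 4 and 8 UMIs given above.

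The label therefore held for the members as a set, with less to bear it out in the nuclei without Grin3a and Elfn1. The members were not all the nuclei with Sst. A further 41 vehicle nuclei and 69 OLE nuclei met every condition except the one on Gad1 and Gad2, and are called Gad-short Sst nuclei here. Their Gad1 and Gad2 UMIs together ranged from 0 to 14 in the vehicle library and from 0 to 19 in the OLE library, with medians of 6 and 5. Of their other markers, Nxph1 was at 3579 and 3363 per 1000000, Grin3a at 1297 and 1273, and Elfn1 at 155 and 171. Sox6 in them was at 858 and 626 per 1000000, and Lhx6 at 51.9 and 76.2. Sst was at 656 and 1382 per 1000000, and the glutamatergic list at 504 and 575. Of all Sst UMIs of a library, the members held 17.8% in the vehicle library and 26.1% in the OLE library, and the Gad-short Sst nuclei a further 22.4% and 27.3%. The mixture differed between the libraries. In the OLE library 9 of the 69 held 5 or 6 Sst UMIs, at most 3 of Nxph1, at most 1 of Sox6 and at most 2 of Grin3a, and so lacked the MGE markers, while no vehicle nucleus held fewer than 6 of Nxph1. The 9 carried 6.04% of the UMIs of their set, and values without them are given where they move a result. The Gad-short nuclei were counted after the data had been seen, and they are given beside the members as nuclei of the same 2 libraries that the rule did not use.

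**Figure D1:**
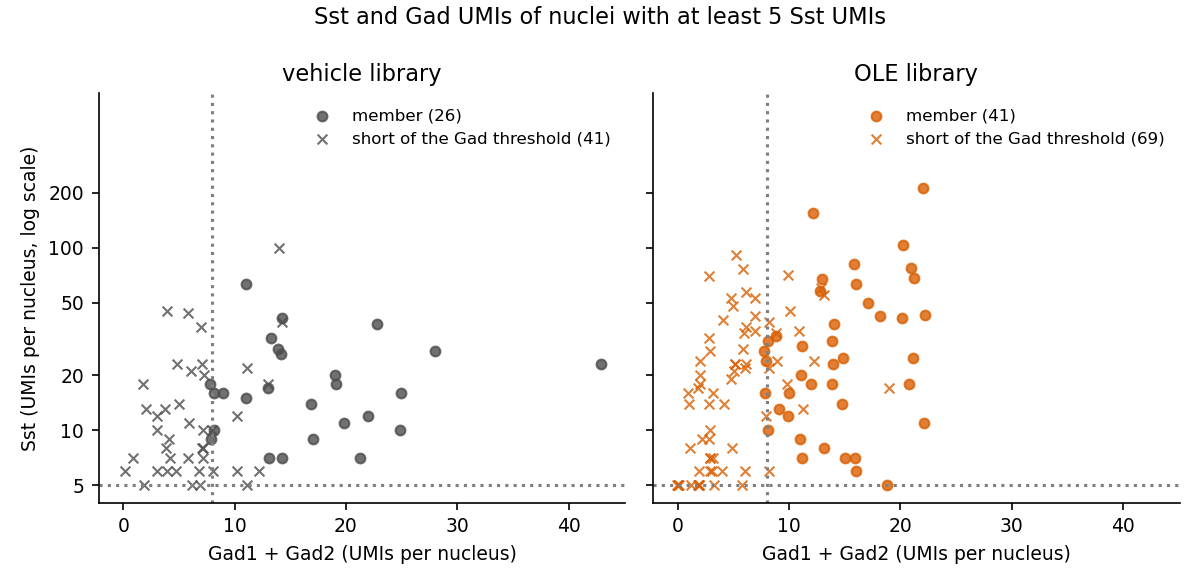
Sst UMIs (log scale) against the sum of Gad1 and Gad2 UMIs in each nucleus that met the conditions on depth, Slc17a7, Adarb2 and Sst, by library, with members as dots, nuclei short of the Gad condition as crosses, the thresholds as dotted lines and a small sideways shift so that points do not hide each other. Crosses right of the line failed the condition of 0.05%, the clouds run into each other at the threshold, and the 3 members above 100 Sst UMIs were all in the OLE library.

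At the other thresholds the edges were emptier. Just inside the Sst threshold, 5 vehicle nuclei and 7 OLE nuclei held 5 to 9 Sst UMIs, and just outside it 2 and 1 held 3 or 4. No nucleus of either library lay between 5 and 9 UMIs of Adarb2 and met the other conditions. Of the nuclei with at least 10 Adarb2 UMIs, 1 in the vehicle library and 2 in the OLE library had at least 5 Sst UMIs, and these were left out of every comparison. No nucleus failed only on its total or only on Slc17a7.

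Sst was used to choose the members, so its level is a description. It ranged from 7 to 63 UMIs in the vehicle nuclei, with a median of 16, and from 5 to 212 in the OLE nuclei, with a median of 25. Scaled by depth, the nuclei ran from 274 to 6514 per 1000000 in the vehicle library, with a median of 909, and from 158 to 7182 in the OLE library, with a median of 1280. The 2 ranges overlapped nearly in full, but the second highest vehicle nucleus was at 2984 per 1000000. Above that value lay a single vehicle nucleus and several OLE nuclei. The sums gave 884 and 1815 per 1000000, a log2 ratio of 1.04, which was 0.72 when every nucleus was given the same weight. Sst was also found more often outside these cells in the OLE library: among the other deep nuclei (median depths of 17409 and 12823 UMIs), once the 8 and 31 Gad-short Sst nuclei among them were set aside, 16.1% in the vehicle library and 32.0% in the OLE library held at least 1 Sst UMI, and 0 and 8 nuclei held at least 5. Over whole libraries Sst was at 40.6 and 86.1 per 1000000. In the Adarb2 nuclei, described next, Sst was at 6.75 and 12.4 per 1000000. The part of Sst outside these cells in the difference between libraries was not tested, and Sst per cell and the number of its source cells in a pool cannot be told apart in it.

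The share of members among all nuclei was 0.385% (0.252 to 0.564) in the vehicle library and 0.664% (0.477 to 0.900) in the OLE library, a difference of 0.279 percentage points (0.0199 to 0.550). Without the top 5% of doublet scores it was 0.246 points (-0.00895 to 0.513), an interval that includes 0. More of the OLE library passed the depth condition: 3725 nuclei against 3011. Among these deep nuclei the shares were 0.864% and 1.10%, a difference of 0.237 points with an interval from -0.268 to 0.728. Among the 147 and 182 nuclei that passed the Gad1, Gad2, Slc17a7 and depth conditions, the shares were 17.7% and 22.5%, a difference of 4.84 points (-4.39 to 13.8). With either of the last denominators the difference was within counting error. Single animals were not sequenced, so the spread between mice is unknown.

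Sst nuclei were set beside 2 other classes of the same gate. Adarb2 nuclei (74 in the vehicle library and 77 in the OLE library) had at least 10 Adarb2 UMIs and fewer than 5 of Sst, and Adarb2 marks interneurons of the caudal ganglionic eminence (CGE). Sst-low Adarb2-low nuclei (46 and 62) were below both thresholds. Since the classes were cut from the same counts, these differences are descriptions. A gene was counted when its summed level in Sst nuclei was at least 2-fold higher, or lower, than in both classes in both libraries. Of 2550 genes with at least 100 UMIs in the Sst nuclei, 42 (1.65%) were higher and 14 (0.549%) lower by this measure.

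The 15 genes that stood highest over both classes, by the smallest of their 4 ratios, were led by Man1a, a mannosidase of the Golgi apparatus. It was at 699 and 482 per 1000000 in the Sst nuclei of the vehicle and OLE libraries, against at most 59.4 in either other class, so that its smallest ratio was 10.7. Trpc6, a cation channel opened by diacylglycerol, was at 350 and 365 per 1000000, with a smallest ratio of 10.1. The noncoding gene Gm20754 followed with a smallest ratio of 7.17. It was found in 26 of 26 and 38 of 41 Sst nuclei. Unc13c, which primes synaptic vesicles, had a smallest ratio of 6.58 but was found in only 9 and 19 nuclei. It was followed by Grin3a, at 1231 and 1037 per 1000000 against 222 and 172 in Adarb2 nuclei and 134 and 66.5 in Sst-low Adarb2-low nuclei.

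The rest of the 15 had smallest ratios between 2.86 and 4.56. Trhde, an enzyme that cleaves thyrotropin-releasing hormone, was at 995 and 723 per 1000000. Tmcc3 was at 293 and 282, and Elfn1 at 144 and 156. Gm32647, the calmodulin-dependent phosphodiesterase gene Pde1c, Olfm3, Gm16083, the semaphorin gene Sema6d and the cadherin gene Cdh9 were also on the list. Of the fixed lists, glutamate receptors had 3 of 18 genes past 2-fold and synaptic adhesion 3 of 41, while MGE identity had 2 of 11 higher and 1 lower.

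**Figure D2:**
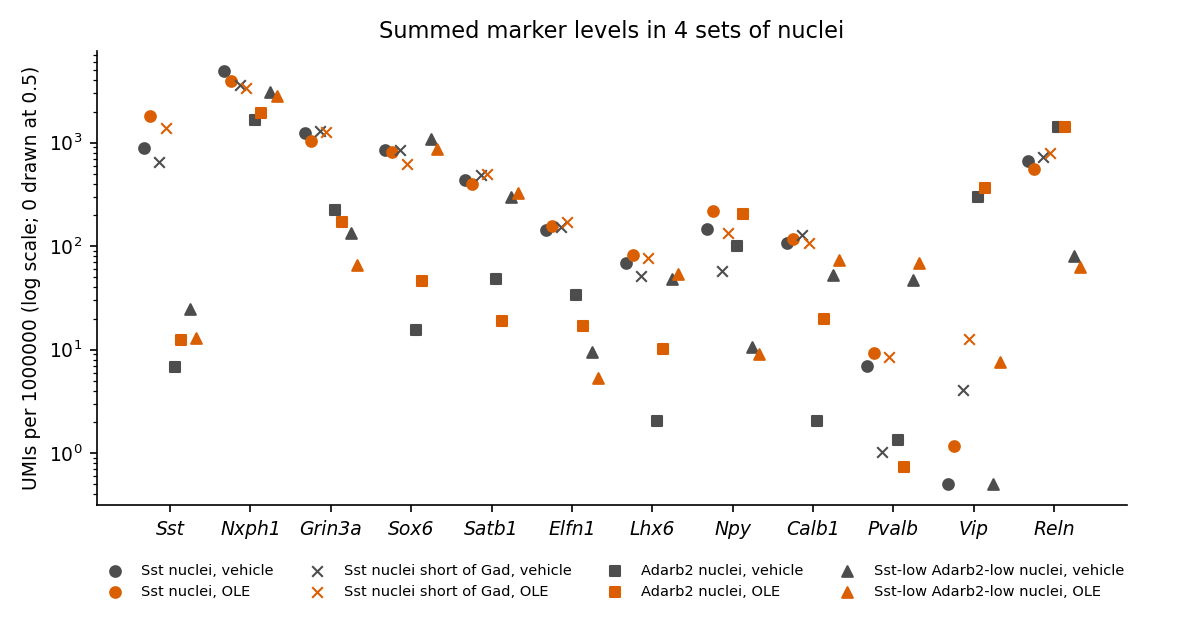
Summed UMIs per 1000000 (log scale, a sum of 0 drawn at 0.5) of 12 marker genes in 4 sets of nuclei, by shape, in the vehicle library (grey) and the OLE library (orange), with no error bars. Dots and crosses lie close together for Nxph1, Grin3a, Satb1, Elfn1 and Reln, squares stand high for Vip and Reln, and triangles stand high for Pvalb.

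The Sst-low Adarb2-low nuclei shared Nxph1 (3113 and 2796 per 1000000), Sox6 (1077 and 873) and Lhx6 (48.0 and 53.5) with the Sst nuclei. They differed in Grin3a, in Elfn1 (9.60 and 5.35) and in Pvalb, which encodes the calcium-binding protein of another MGE class and was at 47.0 and 68.7 per 1000000 in them against 6.93 and 9.30 in Sst nuclei. Reln, which encodes a secreted matrix protein, was at 667 and 558 in Sst nuclei, 1404 and 1417 in Adarb2 nuclei and 79.7 and 63.4 in Sst-low Adarb2-low nuclei. Erbb4, the neuregulin receptor of interneurons, was lower in Sst nuclei, at 4020 and 3511 per 1000000, than in Adarb2 nuclei (12240 and 12126) or Sst-low Adarb2-low nuclei (13507 and 12452).

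The members were a mixture when read gene by gene. With at least 3 UMIs as the mark of a positive nucleus, Npy, the gene of neuropeptide Y, was positive in 7 of 26 vehicle nuclei (26.9%, 11.6 to 47.8) and 16 of 41 OLE nuclei (39.0%, 24.2 to 55.5). Calb1, the gene of calbindin, was positive in 8 (30.8%) and 13 (31.7%). Both were positive in 3 vehicle nuclei and 6 OLE nuclei. Nos1, the neuronal nitric oxide synthase gene, was positive in 3 and 5 nuclei, and Tacr1, the substance P receptor gene, in 1 and 4. Etv1 was positive in 2 and 2, Hpse in 1 and 2, Cort, the gene of the related peptide cortistatin, in 1 and 1, and Crhr2 in 0 and 1. Calb2 was positive in 0 nuclei of both libraries. It had 0 UMIs in the 26 vehicle nuclei, which allows a sum of up to 5.20 per 1000000 (an approximate limit, set at 3 UMIs), and 6 in the OLE nuclei.

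The genes of the long-range subtype fell together in 3 nuclei. Chodl had 7 and 6 UMIs in 2 vehicle nuclei, 4 UMIs in 1 OLE nucleus and none elsewhere among the members. The first vehicle nucleus also held 63 Nos1, 22 Npy and 22 Tacr1 UMIs, with 28 of Sst and 85 of Sox6. The second held 34 Nos1, 14 Npy and 2 Tacr1 UMIs. The OLE nucleus held 22 Nos1, 10 Npy and 8 Tacr1 UMIs. Calb1, Calb2, Hpse and Crhr2 were at 0 in all 3. These nuclei carried 97 of the 105 Nos1 UMIs of the vehicle members and 22 of the 50 of the OLE members.

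**Figure D3:**
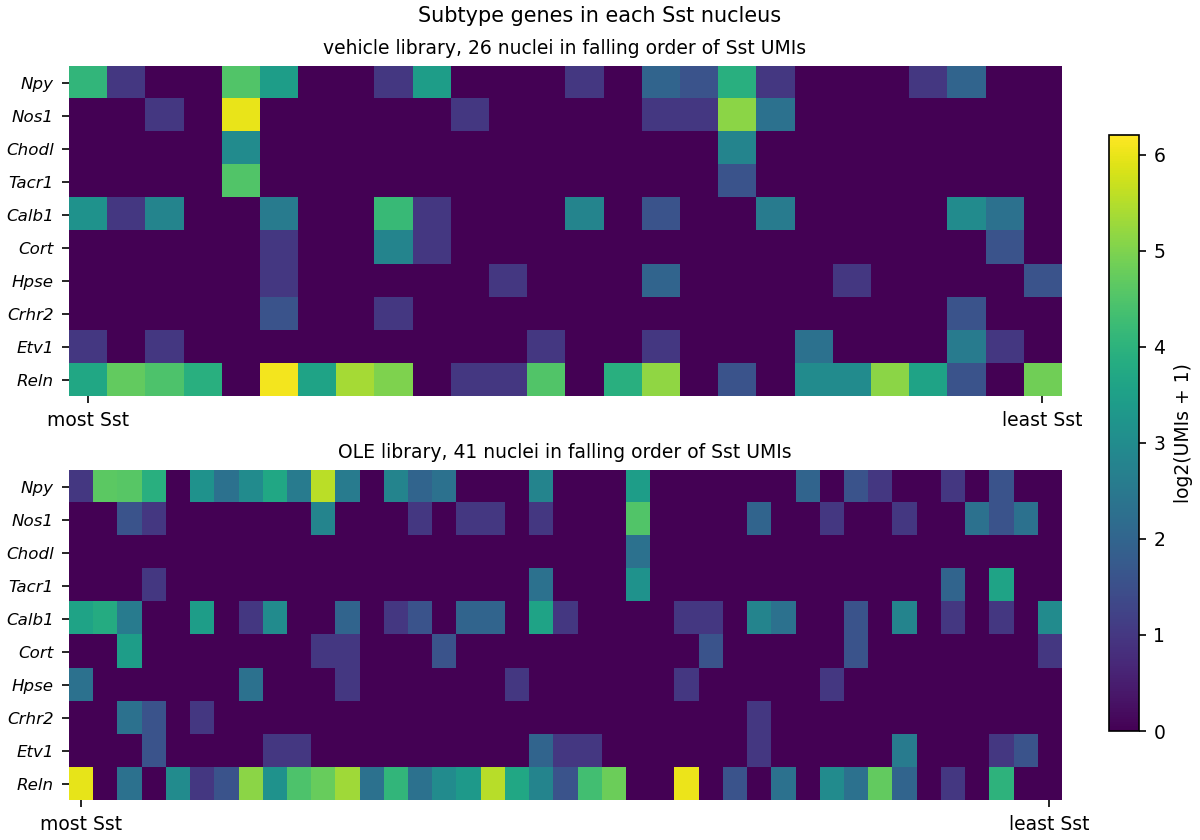
UMIs of 10 subtype genes, as log2(UMIs + 1), in each of the 26 vehicle and 41 OLE members, ordered from the most to the least Sst UMIs. Chodl, Nos1, Npy and Tacr1 are bright in the same columns, 2 in the vehicle library and 1 in the OLE library, while Reln and Calb1 are spread over many nuclei.

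The 5 OLE nuclei with the most Sst (212, 155, 104, 81 and 77 UMIs) differed in Npy, with 1, 24, 23, 14 and 0 UMIs. Summed, the 16 OLE nuclei positive for Npy held Sst at 2542 per 1000000 and the other 25 at 1316, and in the vehicle library these values were 1176 and 786. Since Sst is a gene of the rule, these values are a description. Over all members Npy was at 147 per 1000000 in the vehicle nuclei and 217 in the OLE nuclei, a log2 ratio of 0.56 (0.18 to 0.95), but of 0.088 with every nucleus weighted equally and of 1.18 without the Chodl nuclei. A single nucleus carried 25.9% of the vehicle sum and another 24.6% of the OLE sum. In the Gad-short Sst nuclei the log2 ratio of Npy was 1.22 (0.78 to 1.69), and in Adarb2 nuclei 1.03 (0.74 to 1.33). When each nucleus was thinned to 5000 UMIs, 26.9% of the vehicle members and 39.0% of the OLE members still held an Npy UMI, against 24.3% of 74 and 29.9% of 77 Adarb2 nuclei, and 0 of 21 (exact interval up to 16.1%) and 1 of 76 glutamatergic nuclei. Without thinning, 13 of 26 and 21 of 41 members held one.

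Counts differed between members well beyond what depth gave. Across 1217 genes with at least 200 UMIs, the variance relative to that expected from depth alone had a median of 2.02 in the vehicle nuclei and 2.05 in the OLE nuclei, while that of Sst was 20.7 and 35.3. Erbb4 varied most: its median was 19.5 UMIs in the vehicle nuclei and 21 in the OLE nuclei, but 1 vehicle nucleus held 635 and 1 OLE nucleus 776. Lsamp, an adhesion gene of neurons, ran from 16 to 589 UMIs in the vehicle nuclei and from 16 to 926 in the OLE nuclei. Mgat4c and Kcnip4, a potassium channel partner, had medians of 1 and 7.5 UMIs in the vehicle nuclei and highest values of 277 and 253. The mitochondrially encoded genes mt-Atp6, mt-Co3 and mt-Co2, were among the 15 most variable, and single nuclei carried 41.2%, 42.2% and 45.0% of their vehicle sums. The other genes among the 15 were Ncam2, Malat1, Lrrtm4, Cntn5, Tenm2, Lrrc4c, Csmd1 and Galntl6.

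The question the 2 libraries address is how the RNA of these cells differed between the OLE pool and the vehicle pool. UMIs were summed over the members of each library, scaled per 1000000 UMIs, and compared as log2(OLE/vehicle). Of the 2550 genes with at least 100 UMIs, 196 (7.69%) had a log2 ratio of at least 0.5 and 118 (4.63%) of at most -0.5, and these are called past the fold. The median log2 ratio over the 2550 genes was 0.0019. Scaled by the median ratio over genes in place of the totals, the counts were 152 and 169. In the Gad-short Sst nuclei 136 (5.33%) and 66 (2.59%) of the same genes were past the fold. With 26 and 41 nuclei, single nuclei weighed on many sums, so the part carried by the top nucleus is given where it is large.

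The MGE identity genes summed to 15462 per 1000000 in the vehicle nuclei and 13058 in the OLE nuclei, a log2 ratio of -0.24 (-0.28 to -0.20). Of 20 genes 11 were measured well enough, 0 were past the fold in either direction, and the median was -0.12. Lhx6 had a log2 ratio of 0.25 (-0.33 to 0.85), Sox6 of -0.055 (-0.22 to 0.11), Satb1 of -0.12 (-0.36 to 0.12) and Elfn1 of 0.11 (-0.29 to 0.53). Nxph1 was at -0.31 (-0.38 to -0.24), and Grin3a at -0.25 (-0.39 to -0.10). In the Gad-short Sst nuclei Nxph1 was at -0.090 (-0.16 to -0.024) and Sox6 at -0.45 (-0.60 to -0.31), and without the 9 nuclei that lacked MGE markers they were at -0.0046 and -0.37.

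Genes of GABA handling had a median of 0.25, with 3 past the fold upward and 0 downward of the 7 measured among 10, Gad1 and Gad2 being left out. Slc32a1, the transporter that loads GABA into vesicles, was at 104 per 1000000 in the vehicle nuclei and 163 in the OLE nuclei (log2 ratio 0.65, 0.20 to 1.11). Slc12a5, the chloride exporter on which inhibition by GABA depends, was at 104 and 159 (0.61, 0.17 to 1.08). In the Gad-short Sst nuclei the log2 ratios of both were 0.71 and 0.41, and in the Adarb2 nuclei 0.62 and 0.56. Over the same 7 genes the median was 0.15 in Adarb2 nuclei and 0.38 in Sst-low Adarb2-low nuclei, so it was not particular to the Sst nuclei.

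The genes that make and hold peptides had a median of 0.34, with 5 past the fold upward and 0 downward of the 14 measured among 20. Scg2 and Chgb, which encode granins of dense-core vesicles, were at 48.5 and 74.5 per 1000000 in the vehicle nuclei and 114 and 139 in the OLE nuclei, log2 ratios of 1.23 (0.61 to 1.89) and 0.90 (0.39 to 1.44). Chga, a further granin, was at 55.5 and 123 (1.15, 0.57 to 1.77). Pcsk1n, which encodes an inhibitor of a prohormone convertase, was at 125 and 217 (0.80, 0.40 to 1.21). Syt4, a synaptotagmin of dense-core vesicles, was at 81.5 and 128 (0.65, 0.14 to 1.17). These 5 genes of the Gad-short Sst nuclei were again past the fold, at 0.85, 0.74, 1.19, 1.19 and 0.59, and the list had 5 of 14 past it with a median of 0.41. Over the same 14 genes the median was 0.29 in Adarb2 nuclei and 0.25 in Sst-low Adarb2-low nuclei, so it was not particular to the Sst nuclei.

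The enzymes of the same list had ratios nearer to or below 0. Pcsk2, the convertase, was at 168 and 166 per 1000000 (log2 ratio -0.017, -0.40 to 0.37). Cpe, the carboxypeptidase that trims the cut peptides, was at 258 and 316 (0.29, -0.0020 to 0.59). Pam, which amidates peptides, was at 1402 and 1053 (-0.41, -0.55 to -0.28). The Gad-short Sst nuclei gave 0.44, 0.37 and -0.076 for these 3 genes. Summed over the list, the level was 5816 and 5914 per 1000000.

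Genes of the APP family and of amyloid handling had a median of 0.44, with 5 past the fold upward and 0 downward of the 10 measured among 24. Itm2b, which encodes a membrane protein that binds APP, was at 116 and 234 per 1000000 (log2 ratio 1.01, 0.60 to 1.43) and was found in 21 of 26 and 40 of 41 nuclei. Its relative Itm2c was at 57.2 and 112 (0.96, 0.38 to 1.58). Cst3, the gene of cystatin C, was at 52.0 and 108 (1.06, 0.45 to 1.70). Aplp1 and Aplp2, the relatives of App, were at 0.71 (0.20 to 1.24) and 0.60 (0.23 to 0.99). App itself was at 622 and 755 per 1000000 (0.28, 0.091 to 0.47), and reads of the APP transgene were not separated from it in these counts. Among Gad-short Sst nuclei Itm2b was at 0.74, Itm2c at 1.09, Cst3 at 0.97, Aplp1 at 0.99 and Aplp2 at 0.43, and in Adarb2 nuclei Itm2b was at 0.77. The median over the same 10 genes was also above 0 in Adarb2 nuclei (0.22) and in Sst-low Adarb2-low nuclei (0.27).

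Genes of folding and stress in the endoplasmic reticulum (ER), not all of them chaperones, had a median of 0.32. Of the 8 measured among 33, 2 were past the fold upward and 1 downward. With every nucleus weighted equally the median of the ER list was 0.14. Chaperones of the cytosol and mitochondria had a median of 0.32 too, with 2 upward and 0 downward of the 6 measured among 32. Hspa8, the constitutive Hsp70 of the cytosol, was at 95.3 and 224 per 1000000 (log2 ratio 1.23, 0.80 to 1.69), and 21.8% of its OLE sum came from 1 nucleus, without which and without the top vehicle nucleus it was 1.09. Hsp90ab1, a cytosolic Hsp90, was at 74.5 and 162 (1.12, 0.61 to 1.64). Hspa5, the Hsp70 of the ER, was at 58.9 and 109 (0.89, 0.31 to 1.5), and Canx, the lectin chaperone calnexin, at 97.1 and 186 (0.94, 0.49 to 1.40). Atp2a2, the calcium pump of the ER, was at 168 and 230 (0.45, 0.095 to 0.82). Calr, calnexin's soluble relative, was at 111 and 131 (0.24, -0.21 to 0.71), and at -0.042 with every nucleus weighted equally. Sec63, part of the translocation channel of the ER, was at 97.1 and 66.2 (-0.55, -1.11 to 0.0071).

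The same genes in the Gad-short Sst nuclei had log2 ratios of 1.23 for Hspa8, 0.93 for Hsp90ab1, 0.87 for Hspa5, 0.63 for Canx, 0.64 for Atp2a2, 0.78 for Calr and 0.33 for Sec63. The ER list there had 5 of 8 past the fold and a median of 0.63. In Adarb2 nuclei Hspa5 was at 1.36 and in Sst-low Adarb2-low nuclei at 1.17, and Hspa8 at 0.68 and 1.47. Over the genes measured in the members, the median of the ER list was 0.34 and 0.51 in these 2 classes. That of the cytosolic and mitochondrial chaperones was 0.22 and 0.56, so neither list was particular to the Sst nuclei. No difference between these classes was tested. The ratio differed with gene span over all genes: the median log2 ratio was 0.26 over 153 genes spanning under 20 kb, 0.033 over 1074 of 20 to 100 kb, -0.035 over 1124 of 100 to 500 kb and -0.082 over 197 above 500 kb. Cytosolic ribosomal proteins summed to 875 and 1333 per 1000000. The part of gene span in the medians of the lists was not tested. When every nucleus was thinned to 5000 UMIs, 480 genes were left. The medians were then -0.33 over 1 gene of GABA handling and -0.13 over 5 genes of peptide processing. Of the ER list and of the cytosolic and mitochondrial chaperones, 0 genes were left.

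**Figure D4:**
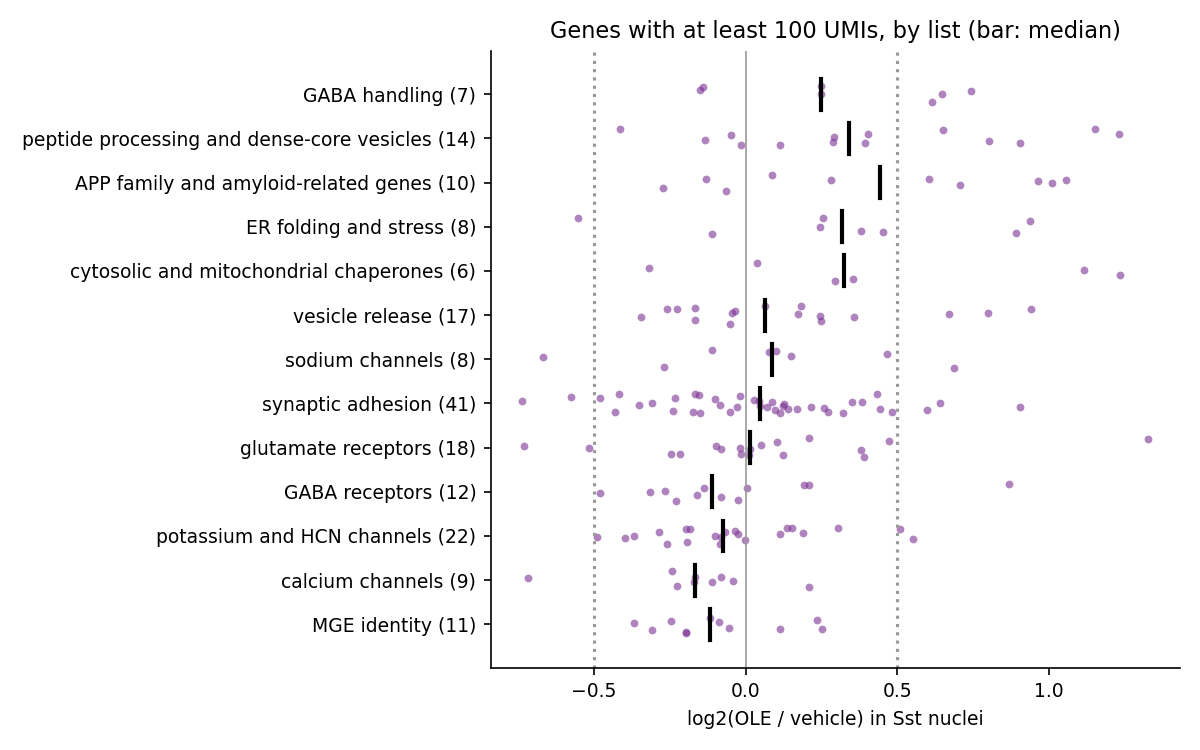
Log2(OLE/vehicle) in the Sst nuclei of each gene with at least 100 UMIs, as dots with a small up or down shift, in 13 lists, with the number of genes in brackets, the median as a bar, and dotted lines at 0.5 and -0.5. Medians run from 0.25 to 0.44 for GABA handling, peptides, APP family, ER folding and stress, and cytosolic and mitochondrial chaperones. The other lists lie between -0.17 and 0.088.

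Receptors and channels had medians nearer 0. Glutamate receptors had 1 of 18 genes past the fold upward and 2 downward, with a median of 0.013. Grik1, a kainate receptor subunit, was at 3110 and 1875 per 1000000 (log2 ratio -0.73, -0.83 to -0.63). For Gad-short Sst nuclei it was -0.12. GABA receptors had 1 of 12 upward and 0 downward, the 1 being Gabbr1, the GABA-B receptor subunit, at 125 and 228 per 1000000 (0.87, 0.47 to 1.28). It was 0.61 with every nucleus weighted equally and 0.83 without the top nucleus of each library. It was -0.19, a value without an interval, when every nucleus was thinned to 5000 UMIs, and 0.16 in the Gad-short Sst nuclei. Calcium channels had 0 of 9 upward and 1 downward, Cacna1e at 397 and 242 (-0.72, -0.99 to -0.44). Potassium and HCN channels had 2 of 22 upward, Kcnc1 (0.55) and Kcnn2 (0.51), and 0 downward. Synaptic adhesion had 3 of 41 upward and 2 downward.

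By rule, the 12 highest and 12 lowest log2 ratios were read among genes with at least 200 UMIs. Htr2c, the serotonin 2C receptor gene, was highest, at 32.9 per 1000000 in the vehicle nuclei and 366 in the OLE nuclei (log2 ratio 3.47, 2.81 to 4.23), from 19 and 315 UMIs. It was found in 8 of 26 and 17 of 41 nuclei, and 1 OLE nucleus held 54.9% of the sum. That nucleus and another with 34 Htr2c UMIs were the 2 OLE members with Prox1, a CGE marker. Without the top nucleus of each library the log2 ratio of Htr2c was 2.84. In the Gad-short Sst nuclei it was -1.80 (-2.31 to -1.31), from 136 and 47 UMIs. There 1 vehicle nucleus held 66.2% of the sum and 1 OLE nucleus 31.9%. Without both it was -0.84, and without the 9 nuclei that lacked MGE markers it was -2.74. Grm8, a presynaptic glutamate receptor gene, was at 107 and 270 per 1000000 (1.33, 0.92 to 1.76), with 48.7% of the OLE sum in 1 nucleus, and at -0.25 in the Gad-short nuclei. Pcdh11x, a protocadherin gene, was at 255 and 625 (1.29, 1.03 to 1.57) and at 0.15 in the Gad-short nuclei.

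Others of the highest were above 0 in the Gad-short nuclei too. Zfpm2, a cofactor of GATA factors, was at 81.5 and 287 per 1000000 (1.82, 1.36 to 2.30), and at 0.35 (0.068 to 0.64) there, or 0.21 (-0.086 to 0.51) without the 9 nuclei that lacked MGE markers. Gm38505 was at 1.34 (0.87 to 1.84) and 0.73 (0.30 to 1.18). Syp, the synaptic vesicle protein synaptophysin, was at 147 and 282 per 1000000 (0.94, 0.58 to 1.31), found in 23 of 26 and 41 of 41 nuclei, and at 0.46 (0.16 to 0.76) in the Gad-short nuclei. With Hspa8, Itm2b and Canx, these were the 6 genes among the 12 highest whose interval lay above 0 in both sets of Sst nuclei, and without those 9 nuclei there were 5, Zfpm2 not being among them. Cdh12 (0.90) and Vwc2 (0.87), the rest of the 12 with Gabbr1, were at -0.42 and -0.80 in the Gad-short nuclei, and 49.2% of the vehicle sum of Cdh12 came from 1 nucleus.

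Of the 12 lowest, Cpne4, a calcium-dependent membrane-binding protein gene, was at 371 and 179 per 1000000 (log2 ratio -1.05, -1.36 to -0.75), with single nuclei at 36.9% and 39.0% of the sums. Egfem1 was at 1180 and 590 (-1.0, -1.17 to -0.83). Edil3, which encodes an integrin-binding matrix protein, was at 458 and 234 (-0.97, -1.24 to -0.70). Slit3, a guidance cue, was at 231 and 123 (-0.90, -1.29 to -0.53). Frmpd4, a postsynaptic scaffold gene, was at 2318 and 1327 (-0.80, -0.92 to -0.69) and was found in 26 of 26 and 40 of 41 nuclei. These 5 genes were at 0.34, 0.097, 0.25, 0.076 and 0.14 in the Gad-short Sst nuclei.

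The remaining genes of the 12 lowest were Gm32647 (-0.86), Tmtc2 (-0.86), Gm28928 (-0.85), Fstl5 (-0.83), Ogdh (-0.80), a subunit of 2-oxoglutarate dehydrogenase, the adhesion gene Flrt2 (-0.74) and Cdh13 (-0.74), the gene of T-cadherin. Single vehicle nuclei held 46.5% of the Tmtc2 sum and 66.7% of the Gm28928 sum, and without the top nucleus of each library Gm28928 was at 0.35. Cdh13 (-0.20, -0.31 to -0.086) and Gm28928 (-0.22, -0.36 to -0.081) were the 2 genes of the 12 whose interval lay below 0 in the Gad-short Sst nuclei too.

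**Figure D5:**
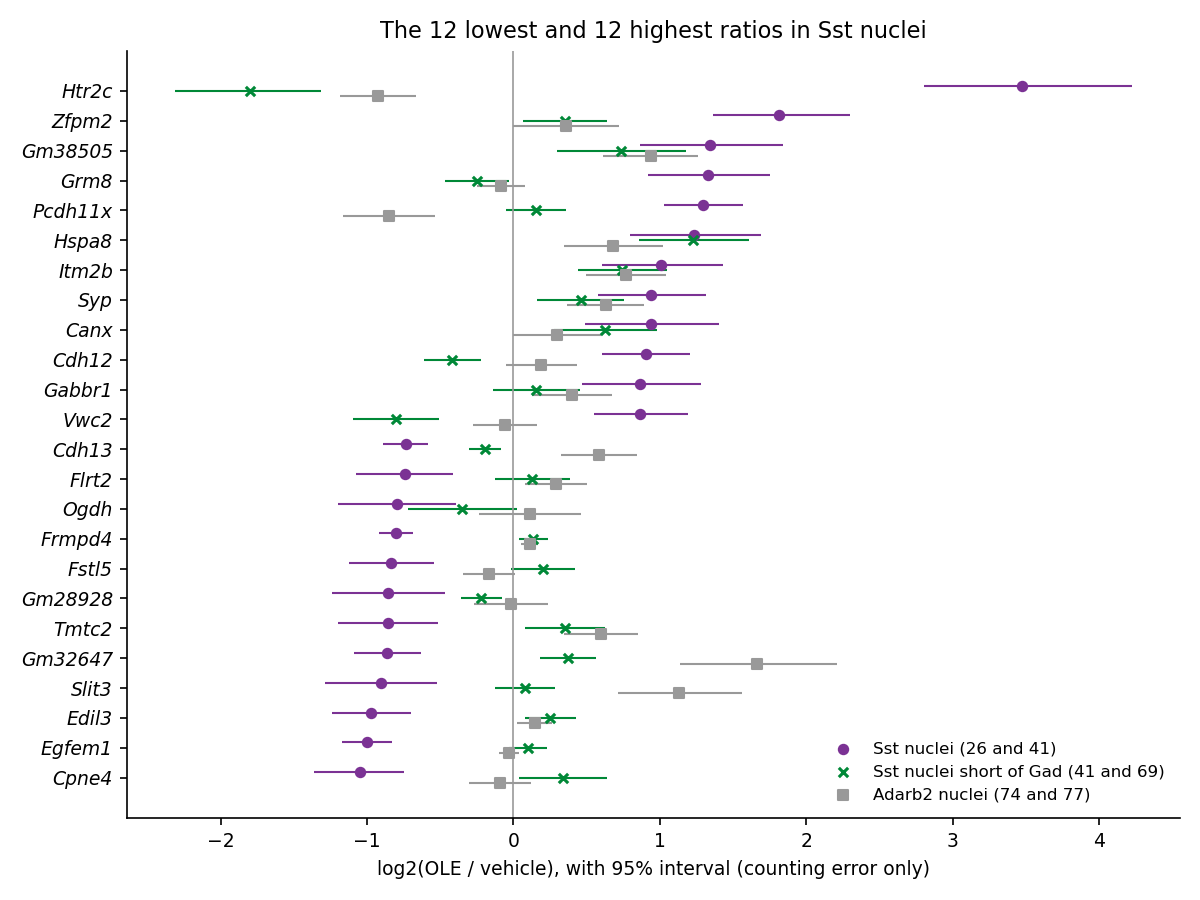
Log2(OLE/vehicle) of the 12 highest and 12 lowest genes in the Sst nuclei (dots), the Gad-short Sst nuclei (crosses) and the Adarb2 nuclei (squares), with exact 95% intervals for counting error and the numbers of vehicle and OLE nuclei in brackets. The genes were picked for the dots, and crosses lie beside dots for Hspa8 and Itm2b and on the other side of 0 for Htr2c, Vwc2, Cdh12 and Cpne4.

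Nos1 had a log2 ratio of -1.65 (-2.16 to -1.15), from 182 to 58.1 per 1000000, and the Chodl nuclei carried it: 1 nucleus held 60.0% of the vehicle sum, and without the 3 Chodl nuclei the ratio was 1.13, from 15.1 and 33.1 per 1000000. Among the subtype genes Cdh7 (0.60), Moxd1 (0.75), Npy and Necab1 (1.22) were past the fold upward, and Nos1 and Col25a1 (-0.56) were among those past it downward, 4 and 3 of 9. In the Gad-short nuclei Moxd1 was at -0.93, Necab1 at -0.71 and Col25a1 at -0.60. The 2 astrocyte marker genes measured, Gpc5 and Slc4a4, were at -2.56 (-3.29 to -1.89) and -0.71 (-1.22 to -0.19), and single nuclei held 39.6% and 44.9% of their vehicle sums. The astrocyte list was higher in the OLE library in the Gad-short Sst nuclei, at 254 and 417 per 1000000, and in Adarb2 nuclei, at 367 and 1190. As in the members, it was lower in the OLE library in Sst-low Adarb2-low nuclei, at 730 and 606, and in glutamatergic nuclei, at 1292 and 903. The part of astrocyte RNA in the values above was not tested.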

How the data were processed

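Single-nucleus RNA-seq libraries were made with Chromium 3′ v3 chemistry from entorhinal cortex pooled from 5 mice per condition. The authors counted UMIs per gene and nucleus with Cell Ranger (3.0.1 per the methods, 3.0.2 per the file headers) against mm10 pre-mRNA, and the deposited values are these raw counts for 31053 genes. The methods state that doublets were removed with Seurat 4.0.4, the caller not being named. Scrublet (scanpy 1.11.5) marked 8 and 7 nuclei automatically, so the top 5% of its scores were left out only as an alternative.

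Counts were summed over member nuclei, scaled per 1000000 UMIs and compared as log2 ratios, with Python 3.11.15, numpy 2.4.6, scipy 1.17.1, pandas 2.3.3 and matplotlib 3.10.9. Genes needed at least 100 UMIs over both libraries, and genes of the member rule were left out. Intervals are exact at 95%. UMIs that share a nucleus are not independent, so the intervals cover counting error only. Scripts were tested on simulated data. The study's regression over nuclei treats nuclei as replicates and was not repeated.

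The members and all 29 gene lists were chosen with earlier results of these data known. Genes were named by list, as the 12 highest and 12 lowest ratios, the 15 highest over the other classes and the 15 most variable (each with at least 200 UMIs), or as Calr, Atp2a2, Hsp90ab1 and Hspa5, which the study named for neurons. Gene spans came from GENCODE (GRCm38), which matched 31011 of 31053 identifiers. Alternatives changed the member thresholds, doublet and barcode handling, scaling, weighting, depth and gene filter, and 5 more were chosen after seeing the data. Some genes that the naming rule picks are not reported here.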

Additional observations from a re-analysis of the deposited data

Results flagged for a closer look

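For 8 genes, log2(OLE/vehicle) was at least 0.5 from 0 on one side in the Sst nuclei and at least 0.5 from 0 on the other side in a second class of the same libraries, with both counting intervals clear of 0. Only named genes and genes of the lists were read, with at least 100 UMIs in the Sst nuclei and in the second class. The differences between classes were not tested, since there was 1 library per condition.

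Against Adarb2 nuclei, Htr2c was at 3.47 in the Sst nuclei and -0.93 in the Adarb2 nuclei, with -1.80 in the Gad-short Sst nuclei, where 1 vehicle nucleus held 66.2% of the sum and the value was -0.84 without the top nucleus of each library. Pcdh11x was at 1.29 in the Sst nuclei, -0.85 in Adarb2 nuclei and -0.84 in Sst-low Adarb2-low nuclei, with 0.15 in the Gad-short Sst nuclei. Gpc5, an astrocyte marker, was at -2.56 and 1.97, with 0.83 in the Gad-short nuclei, and 0.41 (-0.18 to 1.01) there without the 9 nuclei that lacked MGE markers. Slit3 was at -0.90 and 1.13, with 0.076 there. Gm32647 was at -0.86 and 1.66, with 0.37 there. Tmtc2 was at -0.86 and 0.60, with 0.35 there, and at -0.28 in the Sst nuclei without the top nucleus of each library. Cdh13 was at -0.74 and 0.59, with -0.20 in the Gad-short nuclei. Il1rapl2 was at -0.57 and 1.22, with 0.38 there. Of the 8 genes, Cdh13 and Pcdh11x had the sign of the members in the Gad-short Sst nuclei, the interval of Pcdh11x there running from -0.050 to 0.36.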

How the results depend on the processing

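No paired analysis was possible because each condition had 1 library, and no replicate could be left out. Of 1098 values under the first 15 alternatives, 992 stayed within their limits, 103 moved and 3, all of single genes, reversed. Of 373 under 5 alternatives chosen after seeing the data, 205 stayed, 138 moved and 30 reversed. Counting every value on the other side of 0, whatever its size, 15 values of genes and 22 list medians had changed sign under the first alternatives, and 61 and 30 under those chosen later. On thinning the medians went from 0.25 to -0.33 for GABA handling, from 0.34 to -0.13 for peptide processing and from 0.088 to -0.24 for sodium channels. These lists had 7, 14 and 8 measured genes before thinning and 1, 5 and 5 after it, so the medians cover different sets of genes. In the nuclei short of Gad they went from 0.16 to -0.38 for mitochondrially encoded genes, from 0.25 to -0.037 for the respiratory chain, from 0.013 to -0.12 for glutamate receptors and from -0.11 to 0.081 for GABA receptors. The median of peptide and modulator receptors, -0.22, was 0.55 with Sst at 0.05% of the total and 0.33 in the nuclei short of Gad. In the latter it was 0.17 over the genes measured in the members. Against 196 genes higher and 118 lower, thinning to 5000 UMIs gave 27 and 22 (480 genes measured), at least 200 UMIs per gene 61 and 47 (1217 genes), no filter 3132 and 2680, and a log2 ratio of 1 gave 29 and 7. Median-ratio scaling gave 152 and 169. Without a filter, 268 and 85 genes were past the fold between classes. Without the Gad1 and Gad2 conditions, with 67 vehicle and 110 OLE nuclei, 425 genes were higher and 86 lower. Dropping these conditions or the filter changes how many genes are measured, and those numbers are not given. The counts without them therefore cannot be compared with the main counts as shares of genes. Without the Gad1 and Gad2 conditions the difference in share of all nuclei was 0.789 points (0.376 to 1.21). Without the top doublet scores that difference was 0.246 (-0.00895 to 0.513), which includes 0. On thinning the sign changed for Chodl (0.34), which had only 13 and 4 UMIs in the members and was not among the measured genes. After thinning it was found in 1 nucleus of each library. Past the fold, signs changed for Cdh12 (-0.22) with Sst at 0.05% of the total, for Gabbr1 (-0.19) on thinning, for Gm28928 (0.35) without the top nucleus, and for Nos1 (1.13) without the Chodl nuclei. In the nuclei short of Gad alone they changed for Cdh12 (-0.42), Cpne4 (0.34), Edil3 (0.25), Egfem1 (0.097), Flrt2 (0.13), Frmpd4 (0.14), Fstl5 (0.20), Gm32647 (0.37), Grm8 (-0.25), Htr2c (-1.80), Nos1 (0.48), Slit3 (0.076), Tmtc2 (0.35) and Vwc2 (-0.80). Among these with at least 6 Nxph1 UMIs the values were -0.50, 0.38, 0.18, 0.079, 0.10, 0.16, 0.25, 0.44, -0.43, -2.74, 0.51, 0.073, 0.41 and -0.72 in the same order of genes. The causes were not tested. Depth limited low genes: a gene at 0 in the members may have had up to 5.20 UMIs per 1000000 in the vehicle library and 3.49 in the OLE library. These are approximate limits set at 3 UMIs, not exact intervals.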

Other observations

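Among lists described nowhere above, vesicle release had 3 of 17 measured genes past the fold upward, Syp, Unc13c (0.80) and Sv2a (0.67), and 0 downward, with a median of 0.062. Of 8 sodium channel genes and partners, Fgf13 was past the fold downward (-0.67), and 1 vehicle nucleus held 51.8% of the Fgf13 sum. Nuclear-encoded respiratory chain genes summed to 1569 per 1000000 in the vehicle members and 2097 in the OLE members, and mitochondrially encoded genes to 6878 and 7778. The median log2 ratio of the mitochondrially encoded genes was 0.16 in the members, from -0.52 to 0.71 over the alternatives, and -0.38 in the Gad-short Sst nuclei. Nuclear long noncoding RNAs had 0 of 6 past the fold.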
